A study of Mus musculus with 4 samples.

Results

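Immediate early genes are switched on within minutes of a growth signal or an injury, before new protein is made. Those described here encode the JUN and FOS proteins, which pair through leucine zippers to form the transcription factor AP-1, their relatives ATF3 and MAFF, the zinc finger factor EGR1, and MYC. In the liver they are known as early markers of the hepatocyte's entry into regeneration, and c-Jun N-terminal kinase, which phosphorylates JUN, is a mediator of acetaminophen injury in mice. The genes were listed by name as Jun, Junb, Jund, Fos, Fosl1, Fosl2, Atf3, Myc, Egr1 and Maff, 10 genes in all. Of these, 9 had a probe set of their own, among 30743 genes on the array that did. The single probe set for Junb is annotated to the peroxiredoxin gene Prdx2 as well, and no value for Junb is given.

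Total RNA of mouse liver was measured on 4 arrays, 1 for each genotype and time: YAP-KO at 24 h after acetaminophen, wildtype at 24 h, YAP-KO at 0 h and wildtype at 0 h. YAP is a transcriptional coactivator of the Hippo pathway, and the series asks about its role in regeneration after acetaminophen overdose. All animals were fasted males, those at 24 h were injected intraperitoneally with 300 mg/kg acetaminophen, and the wildtype animals carried the floxed Yap gene. Each array held RNA pooled from 3 mice, so the spread between animals was not measured. The labels used here name neither the Cre driver, the deleted exons nor the age of the mice, and there was no array from mice left for 24 h without acetaminophen. The effect of the drug therefore cannot be told apart from that of time or handling. With 1 array per group no difference has a replicate check and none carries a p-value.

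Values are log2 array signals, in which 1 unit is a 2-fold difference, and genes at or beyond 2-fold are counted. The comparison set was 18461 genes whose mean over the arrays reached the 40th percentile of all genes, 4.32. Of the 9 measured immediate early genes 8 passed that level, and Fosl1, with a mean of 4.02, did not. Levels of different genes depend on their probes and are not compared. Yap1 read 6.01 in YAP-KO and 8.24 in wildtype at 24 h, and 6.31 in YAP-KO and 7.54 in wildtype at 0 h. The tissue label was borne out by the 8 hepatocyte markers, of which 6, among them Alb and Apoa1, lay at the top of the scale on every array.

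Promoter letters of Jun, Atf3 and Fos are shown because these genes were among those that were higher at 24 h and each holds a match to an ATF or cAMP response element just upstream of its start. They are RefSeq sequences of build GRCm38.p6, printed in the direction of transcription with motif matches in capitals. The Jun stretch is chr4:95052223-95052307, minus strand, bases 85 to 1 before the start. It holds TGACATCA, the variant AP-1 element known to bind JUN and ATF2. The Atf3 stretch is chr1:191183334-191183483, minus strand, bases 150 to 1 before the start. Its TTGCATCA is the reverse strand of the C/EBP-ATF response element TGATGCAA and its ACGTCA is the reverse strand of the cAMP response element core TGACGT. The Fos stretch is chr12:85473784-85473869, plus strand, bases 106 to 21 before the start, with the core on the coding strand.
Jun: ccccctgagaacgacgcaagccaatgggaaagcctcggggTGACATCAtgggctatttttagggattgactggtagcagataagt
Atf3: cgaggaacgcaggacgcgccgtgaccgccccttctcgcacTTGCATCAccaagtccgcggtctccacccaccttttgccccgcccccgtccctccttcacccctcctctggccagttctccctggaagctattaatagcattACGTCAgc
Fos: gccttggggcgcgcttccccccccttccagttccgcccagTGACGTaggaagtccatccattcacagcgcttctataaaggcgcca

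Both strands of the 250 bases before each start were searched, for 9 starts of 7 listed genes (Maff has 3 starts, and Myc, Fosl1 and Egr1 were not among them). Of all 32851 promoters in the table, 2.93% held TGACATCA, against 2 of the 9 starts, those of Jun and 1 start of Maff. The core TGACGT was in 6.47% of promoters and at 3 of the 9 starts (Atf3, Fos and 1 of Maff), and the full element TGACGTCA, which contains the core, in 1.55% and at that start of Maff. TGATGCAA was in 0.791% of promoters and at 1 start, Atf3. The E-box CACGTG, bound by MYC with MAX, was in 6.02% and at 1 start, of Maff. No match was found at the 9 starts for the AP-1 site TGANTCA (6.75% of promoters), the TEAD site GGAATG (12.6%), the Maf half-site TGCTGA (16.1%) or the CArG box of serum response factor (1.47%). Maff thus held such matches too, though it was not 2-fold higher at 24 h in either genotype. All these matches describe letters in a short window, and binding was not measured.

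At 24 h after the overdose the immediate early genes were higher in wildtype liver, and in YAP-KO liver most stayed close to their own 0 h level. Against their own 0 h arrays, 2 of the 9 genes were 2-fold or more higher in YAP-KO, where 4.72% of the comparison set was (2.86% with no filter), and 8 of 9 in wildtype, where 12.7% was (7.65% with no filter). None of the 9 was 2-fold lower in either genotype, where 2.22% of the comparison set was in YAP-KO and 5.89% in wildtype. The 9 genes were chosen with earlier results of these data known, so these shares are no independent check on them. The median difference was 0.14 in YAP-KO and 2.20 in wildtype, against medians of 0.07 over the comparison set in each genotype. After centring each array on the median of its comparison set genes, the YAP-KO median of the 9 genes was -0.01, against -0.08 over the comparison set.

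**Figure D1:**
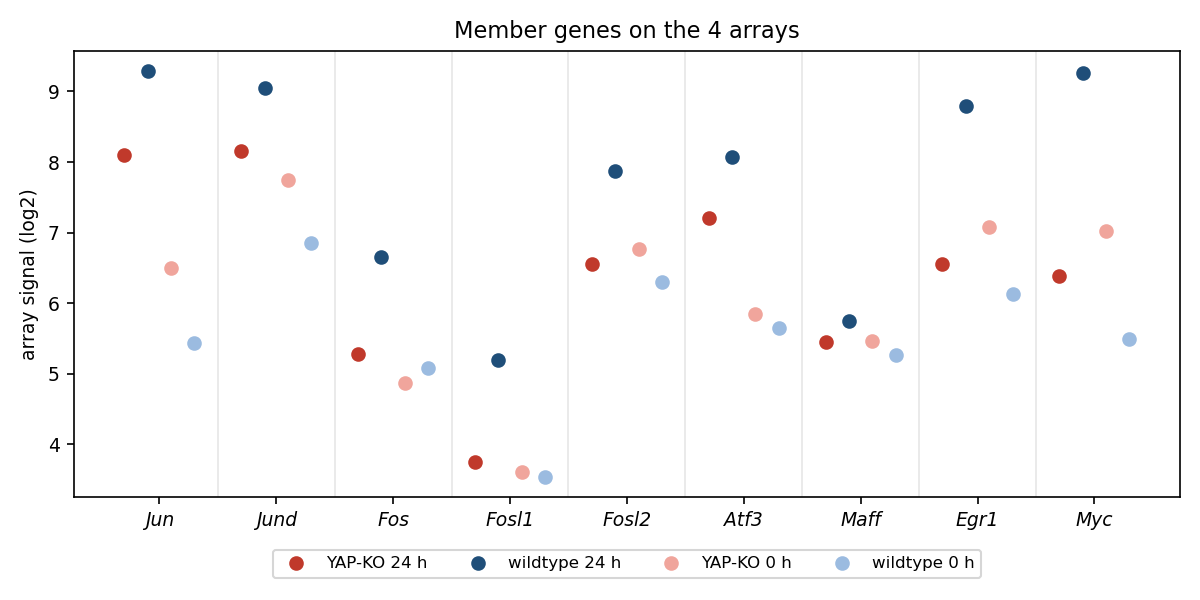
Signal (log2) of the 9 measured genes on the 4 arrays, 1 point per array of pooled RNA and no error bars; within each gene the arrays run YAP-KO 24 h, wildtype 24 h, YAP-KO 0 h and wildtype 0 h. The wildtype 24 h point is the highest of the 4 for all 9 genes, and points of different genes are not comparable in height.

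The JUN proteins can pair with each other or with FOS proteins. Jun (Entrez gene 16476) read 8.10 in YAP-KO and 9.29 in wildtype at 24 h, and 6.50 in YAP-KO and 5.44 in wildtype at 0 h. Jun was thus higher at 24 h in both genotypes, by 1.60 in YAP-KO and 3.85 in wildtype. A share of 0.964% of the comparison set was as high in the YAP-KO difference, and 0.423% in the wildtype difference. Jund (16478), the member of the JUN family usually described as the least inducible, read 8.15 in YAP-KO and 9.05 in wildtype at 24 h, and 7.75 in YAP-KO and 6.85 in wildtype at 0 h. The 24 h difference of Jund was 0.40 in YAP-KO and 2.20 in wildtype. The probe set shared by Junb and Prdx2 read 6.29 in YAP-KO and 6.36 in wildtype at 24 h, and 6.52 in YAP-KO and 6.22 in wildtype at 0 h, a spread of 0.30 over the 4 arrays.

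The FOS proteins bind DNA as partners of JUN, and Fosl1 and Fosl2 encode the relatives FRA-1 and FRA-2. Fos (14281) read 5.28 in YAP-KO and 6.66 in wildtype at 24 h, and 4.86 in YAP-KO and 5.08 in wildtype at 0 h. Fosl1 (14283) read 3.75 in YAP-KO and 5.19 in wildtype at 24 h, and 3.61 in YAP-KO and 3.54 in wildtype at 0 h. Only the wildtype 24 h reading of Fosl1 lay above the filter level, and without detection calls the other 3 have no known floor. Fosl2 (14284) read 6.55 in YAP-KO and 7.87 in wildtype at 24 h, and 6.76 in YAP-KO and 6.30 in wildtype at 0 h. The 3 genes were higher at 24 h by close amounts in wildtype: 1.58 for Fos, 1.65 for Fosl1 and 1.57 for Fosl2. In YAP-KO the 24 h differences were 0.42 for Fos, 0.14 for Fosl1 (-0.01 after centring) and -0.21 for Fosl2.

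Atf3, a stress-induced member of the ATF family that can pair with JUN, differed from the FOS genes in keeping a difference past 2-fold in YAP-KO. Atf3 (11910) read 7.21 in YAP-KO and 8.07 in wildtype at 24 h, and 5.85 in YAP-KO and 5.65 in wildtype at 0 h. Its 24 h difference was 1.36 in YAP-KO and 2.42 in wildtype. Together with Jun it made up the 2 genes counted in YAP-KO. Maff encodes a small MAF protein, which lacks a transactivation domain and partners CNC factors such as NRF2. Maff (17133) read 5.45 in YAP-KO and 5.74 in wildtype at 24 h, and 5.46 in YAP-KO and 5.26 in wildtype at 0 h. Its 4 readings lay within 0.48 of each other, the narrowest range of the 9 genes, and it was the only one not past 2-fold in wildtype.

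Egr1 and Myc were higher at 24 h than at 0 h in wildtype and lower at 24 h than at 0 h in YAP-KO, with larger differences than Fosl2 and Maff, which had the same signs. Egr1 (13653), a zinc finger factor induced by growth factors through serum response factor, read 6.55 in YAP-KO and 8.79 in wildtype at 24 h, and 7.08 in YAP-KO and 6.13 in wildtype at 0 h. The 24 h difference of Egr1 was -0.53 in YAP-KO and 2.66 in wildtype. Myc (17869), which drives ribosome and nucleotide synthesis as a partner of MAX, read 6.39 in YAP-KO and 9.26 in wildtype at 24 h, and 7.02 in YAP-KO and 5.49 in wildtype at 0 h. The 24 h difference of Myc was -0.63 in YAP-KO and 3.77 in wildtype, a size reached by 0.444% of the comparison set in wildtype.

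**Figure D2:**
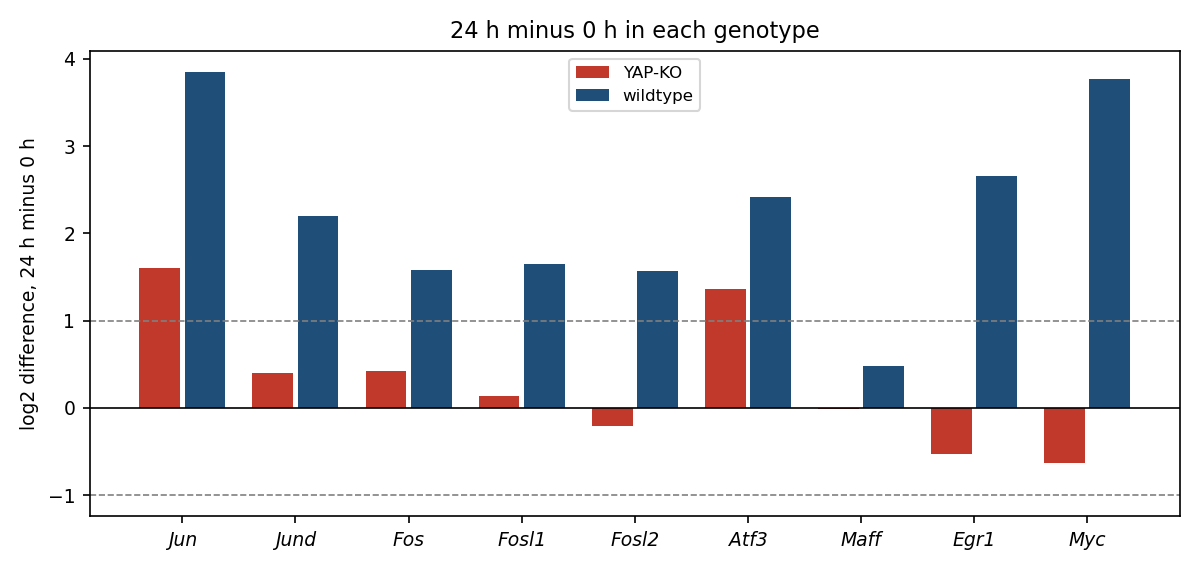
Log2 difference of 24 h minus 0 h for each measured gene, YAP-KO bars left and wildtype bars right, from 1 array per group with no error bars; dashed lines mark 2-fold. Jun and Atf3 pass the line in YAP-KO, and 8 genes, all except Maff, pass it in wildtype.

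The difference between the 24 h responses, YAP-KO minus wildtype, was below 0 for all 9 genes and ran from -4.40 to -0.49 with a median of -1.78, where the comparison set had a median of 0.00. It was 2-fold or more lower in YAP-KO for 8 of 9 genes, against 7.50% of the comparison set (4.72% with no filter). Myc (-4.40) and Egr1 (-3.19) had the largest differences, and 0.163% and 0.450% of the comparison set were as low. Jun (-2.25), Jund (-1.80), Fosl2 (-1.78), Fosl1 (-1.51), Fos (-1.16) and Atf3 (-1.06) followed. The last pair sat close to the line. After quantile normalization Fos was at -0.98 and Atf3 at -0.94, leaving 6 genes, and after centring Atf3 was at -0.95, leaving 7.

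That difference equals the genotype difference at 24 h minus the one at 0 h, and both are given here. In YAP-KO against wildtype before acetaminophen, 2 of 9 genes were 2-fold or more higher, Myc (1.53) and Jun (1.06), where 1.01% of the comparison set was (0.670% with no filter). Egr1 (0.95) and Jund (0.90) were just under the line, and Egr1 was at 1.01 after quantile normalization. A difference as high was seen in 0.336% of the comparison set for Myc, 0.823% for Jun, 1.16% for Egr1 and 1.28% for Jund. The 5 others ran from -0.22 for Fos to 0.46 for Fosl2. Myc, Jun, Egr1 and Jund thus had the highest differences at 0 h, while the FOS genes, Atf3 and Maff differed by less than 1.5-fold.

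At 24 h the direction between the genotypes was the other way for 8 of the 9 genes, while Fos was lower in YAP-KO at both times. All 9 genes were lower in YAP-KO than in wildtype, 6 of them 2-fold or more, where 5.73% of the comparison set was (3.48% with no filter). None was 2-fold higher, against 3.24% of that set. The median was -1.32, against -0.02 over the comparison set. Myc (-2.87) and Egr1 (-2.24) were again the furthest apart, and 0.303% and 0.753% of the comparison set were as low. Fosl1 (-1.44), Fos (-1.38), Fosl2 (-1.32) and Jun (-1.19) were also past 2-fold, while Jund (-0.90), Atf3 (-0.86) and Maff (-0.29) were not.

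**Figure D3:**
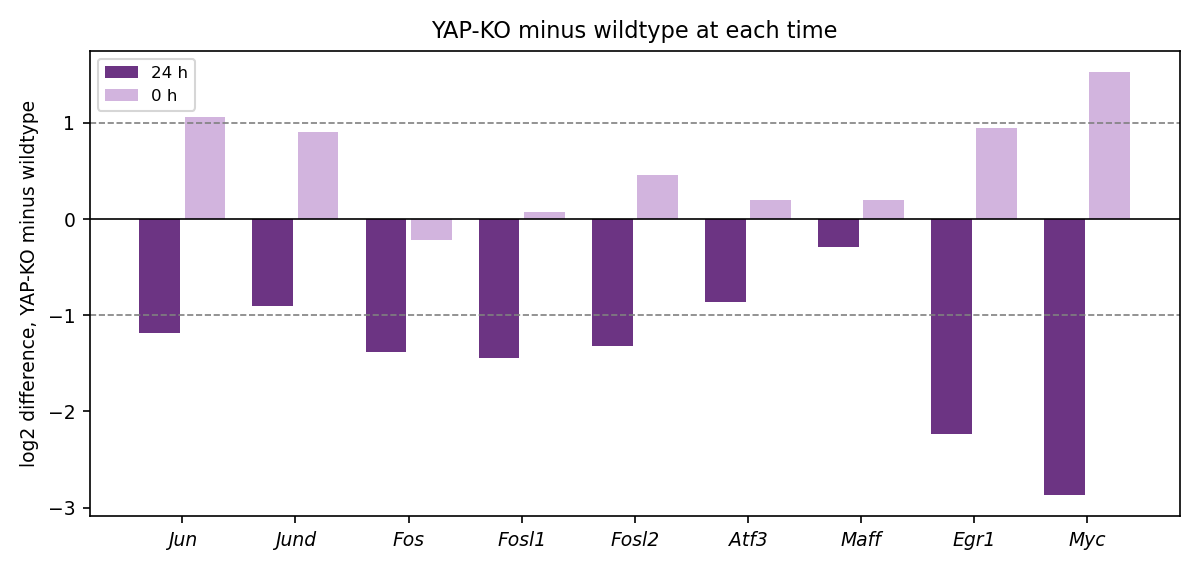
Log2 difference of YAP-KO minus wildtype for each measured gene, 24 h bars left and 0 h bars right, from 1 array per group with no error bars; dashed lines mark 2-fold. All 24 h bars point down, reaching -2.87 for Myc, and the 0 h bars reach 1.53 for Myc and 1.06 for Jun.

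These 4 differences share arrays, so they are not independent of each other. The YAP-KO 0 h array enters both the YAP-KO response and the 0 h comparison, and a high reading there lowers the first and raises the second. Set against the wildtype 0 h array instead, the YAP-KO 24 h readings were above it for all 9 genes, with a median of 0.42. Jun (2.66), Atf3 (1.56) and Jund (1.30) were then 2-fold higher, 3 of 9 genes, where 5.38% of the comparison set was. Myc was at 0.90 and Egr1 at 0.42 in that comparison, so their sign in the YAP-KO response depended on which 0 h array was used. The wildtype 24 h readings were 2-fold higher for 8 of 9 genes against either 0 h array.

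**Figure D4:**
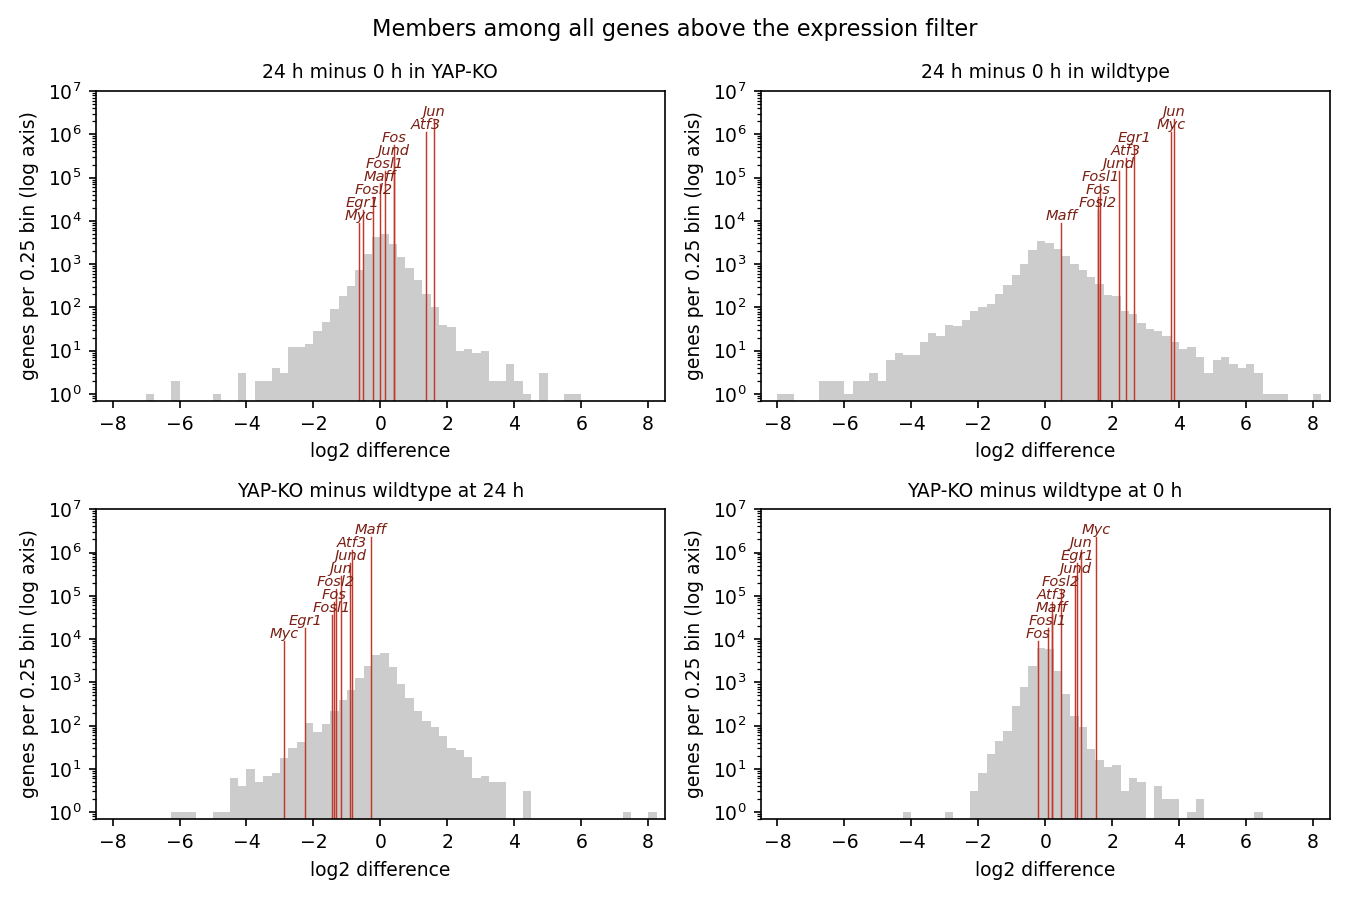
Number of genes per 0.25-wide bin of log2 difference (grey, log axis) over the 18461 genes of the comparison set, with the 9 measured genes as red lines of arbitrary height, for the 2 responses (top, YAP-KO left of wildtype) and the 2 genotype comparisons (bottom, 24 h left of 0 h). Jun and Atf3 stand apart from the centre in YAP-KO, 8 genes do in wildtype, and Myc lies furthest out in both genotype comparisons.

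Among themselves, the genes fell closest together within the FOS family. Likeness was the Euclidean distance between the 4 array values after each gene's own mean was subtracted, in log2 units over 4 arrays. Fos and Fosl1 were 0.234 apart, Fosl1 and Fosl2 0.360, and Fos and Fosl2 0.579. Fosl1 did not pass the filter and its low readings cannot be told from background, which limits its distances. Between genes that passed the filter, Fos and Fosl2 were the closest, followed by Jund with Fosl2 (0.755) and Jund with Atf3 (0.771). Myc and Egr1 were 0.788 apart, whereas Jun and Myc, with near-equal wildtype responses, were 1.69 apart. Jun and Maff, at 2.64, were the most unlike.

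For the 5 genes with the widest range, the 3 most similar genes of the comparison set were named. Myc was closest to Nipal1, which encodes a membrane protein of the NIPA magnesium transporter family, at 0.173, then to the thioredoxin reductase gene Txnrd1 (0.510) and the small GTPase gene Rasd1 (0.567). Jun was closest to the spermidine synthase gene Srm (0.243), the endoplasmic reticulum gene Lrrc59 (0.455) and the leukocyte receptor gene Lilr4b (0.509). Within a distance of 0.5 there was 1 gene for Myc and there were 2 for Jun, against 17 for Egr1, 98 for Atf3 and 109 for Jund. The closest to Egr1 were Bcl2l1, encoding the survival protein BCL-XL (0.121), the TGF-beta receptor gene Tgfbr2 (0.190) and the transcription factor gene Ets2 (0.225). Those of Atf3 were Clic1 (0.0883), Sox9 (0.110) and the actin gene Actb (0.112), and those of Jund were Ltv1, Tubb4b and Frrs1, at 0.0917, 0.191 and 0.196. With 4 points a small distance is a description and was shared by many genes for Atf3 and Jund.

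A further list held other immediate early genes. This list and those after it, like the 9 genes, were chosen with earlier results of these data known. At 24 h against 0 h, 4.72% of the comparison set was 2-fold higher in YAP-KO and 12.7% in wildtype. The shares 2-fold lower were 2.22% in YAP-KO and 5.89% in wildtype. Between the genotypes at 24 h, 5.73% was 2-fold lower and 3.24% higher in YAP-KO. Of the 24 listed, 19 passed the filter; at 24 h, 0 of these were 2-fold higher and 2 lower in YAP-KO, with a median of 0.02 (-0.13 after centring), and 11 were higher and 0 lower in wildtype, with a median of 1.11. The wildtype median was 0.95 after quantile normalization, 0.85 after centring, 0.88 with no filter and 0.61 against the YAP-KO 0 h array. Ier2, a nuclear protein gene, had a 24 h difference of 0.01 in YAP-KO and 2.50 in wildtype. That of Gadd45b, a stress sensor gene, was -0.11 in YAP-KO and 1.60 in wildtype, and that of the kinase gene Pim1 was -0.29 in YAP-KO and 1.56 in wildtype. Zfp36, whose product degrades AU-rich mRNAs, differed by 0.57 in YAP-KO and 1.55 in wildtype. The 2 that were lower in YAP-KO at 24 h were Gadd45g (-1.21) and Pim3 (-1.18). Gadd45g was also the 1 gene of this list 2-fold higher in YAP-KO at 0 h, at 9.24 in YAP-KO and 7.21 in wildtype. Between the genotypes at 24 h, 6 of 19 were 2-fold lower in YAP-KO, led by Ier2 (-2.37), Gadd45b (-1.44) and the nuclear receptor gene Nr4a1 (-1.39), and Gadd45g was higher (0.85).

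The AP-1 genes outside the list differed by less than 2-fold between the arrays compared. Of 14 listed, 11 had a probe set of their own and 9 passed the filter. None of the 9 was past 2-fold in any of the 5 comparisons. The largest share of the comparison set past 2-fold in 1 direction was 12.7%, higher at 24 h in wildtype. A count of 0 among 9 genes therefore says little. Their median at 24 h was -0.04 in YAP-KO and 0.02 in wildtype (-0.24 after centring). Atf2, whose product pairs with JUN, came closest, with a 24 h difference of -0.05 in YAP-KO and 0.93 in wildtype. The small MAF genes differed in sign in wildtype, Mafk at 0.47 and Mafg at -0.40, and were at 0.00 and -0.11 in YAP-KO. Fosb read between 4.12 and 4.32 on the 4 arrays, below the filter.

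A further list held genes known as targets of AP-1. Of 15 above the filter, 10 were 2-fold higher in YAP-KO and 9 in wildtype, against 4.72% and 12.7% of the comparison set. The medians were 1.14 in YAP-KO and 1.92 in wildtype, and 0.99 in YAP-KO and 1.66 in wildtype after centring. With no filter they were 1.03 in YAP-KO and 0.97 in wildtype, so which genotype had the higher median depended on the filter. Sphk1, a sphingosine kinase gene, was at -0.11 in YAP-KO and 0.12 in wildtype. Some genes of the list had near-equal differences. Ccl2, a monocyte chemokine gene, differed by 2.51 in YAP-KO and 2.64 in wildtype. The filament gene Vim differed by 2.50 in YAP-KO and 2.38 in wildtype. Others had the larger difference in YAP-KO: the macrophage elastase gene Mmp12 differed by 2.77 in YAP-KO and 2.15 in wildtype, the stromelysin gene Mmp3 by 1.5 in YAP-KO and 0.89 in wildtype, and the protease inhibitor gene Timp1 by 1.15 in YAP-KO and 0.56 in wildtype. Others again had the larger difference in wildtype: the urokinase receptor gene Plaur differed by 1.06 in YAP-KO and 3.00 in wildtype, the EGF receptor ligand gene Hbegf by 0.32 in YAP-KO and 2.54 in wildtype, and the membrane protease gene Mmp14 by 1.14 in YAP-KO and 2.66 in wildtype. Between the genotypes at 24 h the list median was 0.14, and 3 of 15 were 2-fold lower in YAP-KO: Hbegf (-2.13), Plaur (-2.01) and the integrin gene Itgav (-1.43). Several of these genes are also expressed by macrophages.

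Genes known as targets of MYC include those of polyamine, nucleolar and nucleotide synthesis. Of 24 above the filter, 5 were 2-fold higher and 0 lower in YAP-KO, where 4.72% and 2.22% of the comparison set were, with a median of 0.50. In wildtype 16 were higher and 2 lower, where 12.7% and 5.89% were, with a median of 1.34. The polyamine synthesis gene Odc1 differed by 1.94 in YAP-KO and 3.82 in wildtype, and Srm by 1.49 in YAP-KO and 3.61 in wildtype. The nucleolar genes Ncl and Ddx21 differed by 1.14 and 0.63 in YAP-KO and by 3.22 and 3.35 in wildtype. Odc1, Srm, Ncl, Cad and Cdk4 were the 5 past 2-fold in YAP-KO, where Myc itself was at -0.63. Against the wildtype 0 h array, Myc in YAP-KO was at 0.90. The serine hydroxymethyltransferase genes went the other way, Shmt1 at -0.52 in YAP-KO and -2.11 in wildtype, and Shmt2 at -0.56 in YAP-KO and -1.04 in wildtype. Between the genotypes at 24 h 10 of 24 were 2-fold lower in YAP-KO and 1 higher, Shmt1 (1.39). At 0 h, 0 of 24 were past 2-fold between the genotypes, with a median of 0.18. Few genes of the comparison set were, 186 higher and 162 lower of 18461, so this count says little about the list. Whether the level of Myc bears on these genes was not tested.

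In the network of MYC partners, 13 genes passed the filter. Max, the obligate partner of MYC, differed at 24 h by 0.25 in YAP-KO and 1.74 in wildtype, and Mlx, a partner of the glucose-sensing factors, by 0.39 in YAP-KO and 1.34 in wildtype. These were the 2 of 13 past 2-fold higher in wildtype, where 12.7% of the comparison set was. None was in YAP-KO, where 4.72% was, so both counts lie near the share over all genes. Mlxipl, encoding the carbohydrate response factor ChREBP, was lower at 24 h in both genotypes, with differences of -2.34 in YAP-KO and -3.79 in wildtype. The repressor gene Mxd4 was at -0.24 in YAP-KO and -0.62 in wildtype. The list median was -0.10 in YAP-KO and 0.39 in wildtype.

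Of the kinase and ternary complex factor genes upstream of AP-1 and EGR1, 21 passed the filter. At 24 h, 0 were 2-fold higher and 1 lower in YAP-KO, where 4.72% and 2.22% of the comparison set were. Both counts thus lie near the share over all genes. The YAP-KO median was 0.05 (-0.01 after quantile normalization, -0.10 after centring). In wildtype 8 were higher and 0 lower, where 12.7% and 5.89% of the comparison set were, with a median of 0.55. Map2k3, a kinase of the p38 pathway, differed by -0.49 in YAP-KO and 2.17 in wildtype, and Map2k4, a kinase of c-Jun N-terminal kinase, by -0.36 in YAP-KO and 1.51 in wildtype. The gene lower in YAP-KO was Map3k5, the stress kinase ASK1, which read 9.48 in YAP-KO and 10.14 in wildtype at 24 h, and 11.68 in YAP-KO and 10.49 in wildtype at 0 h. Srf, the serum response factor gene, differed by 0.88 in YAP-KO and 1.5 in wildtype. Map2k6 had a 24 h difference of -0.07 in YAP-KO and -0.96 in wildtype. These are transcript levels of the kinases, and kinase activity was not measured.

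**Figure D5:**
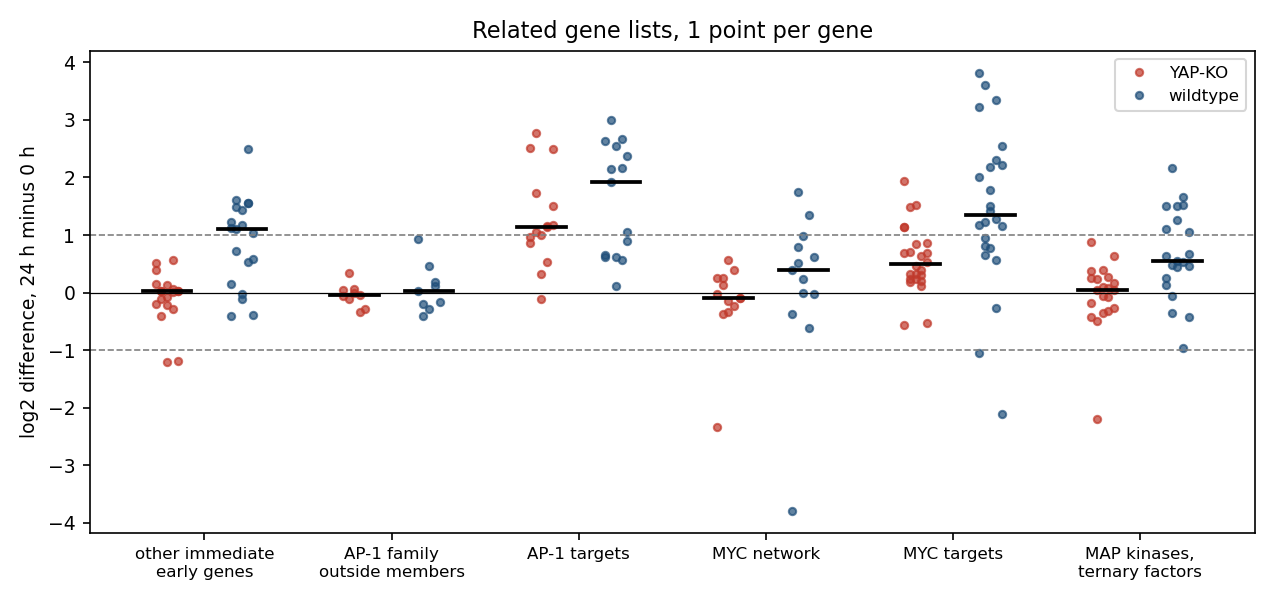
Log2 difference of 24 h minus 0 h for each gene above the filter in 6 related lists, YAP-KO points left and wildtype points right, with the list median as a black bar and 2-fold as dashed lines. The medians of the other immediate early genes are 0.02 in YAP-KO and 1.11 in wildtype, and those of the AP-1 targets are 1.14 in YAP-KO and 1.92 in wildtype. With no filter, which adds genes not shown, the AP-1 target medians are 1.03 in YAP-KO and 0.97 in wildtype.

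Markers of several other liver cell types also differed between the arrays, though not all markers of a list went the same way. In bulk tissue, fewer cells of a type and less RNA per cell cannot be told apart. At 24 h against 0 h, 4.72% of the comparison set was 2-fold higher in YAP-KO and 12.7% in wildtype. The shares 2-fold lower were 2.22% in YAP-KO and 5.89% in wildtype. Between the genotypes at 24 h, 5.73% was 2-fold lower and 3.24% higher in YAP-KO. In lists this short, a count of 1 says little beside these shares. The summed linear signal of 8 neutrophil markers was 717 in YAP-KO and 2572 in wildtype at 24 h, and 363 in YAP-KO and 334 in wildtype at 0 h. At 24 h, 3 of these 8 were 2-fold higher in YAP-KO and 5 in wildtype, with Ly6g at 0.09 in YAP-KO and -0.63 in wildtype. That of 8 monocyte and macrophage markers was 13414 in YAP-KO and 14884 in wildtype at 24 h, and 2357 in YAP-KO and 2843 in wildtype at 0 h, with 5 of 8 higher at 24 h in each genotype. Lyz2 and Cd68 lead that sum and differed by -0.01 and -0.02 between YAP-KO and wildtype at 24 h. Between the genotypes at 24 h, 2 of the 8 were 2-fold lower in YAP-KO, Cd14 (-3.73) and Csf1r (-1.27), with Itgam at -0.98, and none was 2-fold higher, with Ly6c2 at 0.97. The 5 Kupffer cell markers summed to 4276 in YAP-KO and 8076 in wildtype at 24 h, and 2723 in YAP-KO and 2865 in wildtype at 0 h, with 2 of 5 higher at 24 h in YAP-KO and 4 of 5 in wildtype. The 8 stellate cell markers summed to 10880 in YAP-KO and 23115 in wildtype at 24 h, and 9487 in YAP-KO and 9053 in wildtype at 0 h. The 6 endothelial markers summed to 8681 in YAP-KO and 25633 in wildtype at 24 h, and 5632 in YAP-KO and 5719 in wildtype at 0 h. In the stellate and endothelial lists, too, the sum is led by a few bright genes. At 24 h, 2 of 8 stellate markers were higher in YAP-KO and 3 in wildtype, where 1 was lower, Lrat (-1.32). Of 6 endothelial markers, 1 was higher in YAP-KO and 3 in wildtype. Between the genotypes at 24 h, Lrat was higher in YAP-KO (1.16) and Dcn lower (-1.21). Among endothelial markers, 2 of 6 were 2-fold lower in YAP-KO, Lyve1 (-3.88) and Cdh5 (-1.49), and 0 were 2-fold higher. The list medians of that comparison were 0.16 for stellate and -0.07 for endothelial markers. In the same comparison, 5 of 8 neutrophil markers were 2-fold lower in YAP-KO, with a median of -1.34 and Ly6g at 0.53. Of the Kupffer cell markers, 2 of 5 were 2-fold lower in YAP-KO, with a median of -0.58. The 5 cholangiocyte markers summed to 382 in YAP-KO and 620 in wildtype at 24 h, and 201 in YAP-KO and 184 in wildtype at 0 h. Of these, Sox9 alone was past 2-fold at 24 h against 0 h, by 1.47 in YAP-KO and 2.53 in wildtype. The 5 measured lymphocyte markers summed to between 79.3 and 86.8 on the 4 arrays. The part of these cells in the immediate early gene differences was not tested.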

How the data were processed

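Liver RNA, pooled from 3 mice per array, was labelled with biotin and hybridised to 4 single-channel arrays, per the labels' protocols. The deposited table holds 1 value for each of 65956 probe sets and array, between 2.24 and 19.93. These deposited values were taken as log2, a base inferred from their range. The summarisation, background correction, normalization and genome build that the authors used are not given in the sources used here. Array medians lay between 4.32 and 4.47, and 67 genes lay within 0.01 of the maximum on all arrays.

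Gene names came from GEO's platform annotation and were updated through Entrez identifiers to RefSeq (GRCm38.p6): 31216 had 1 gene, 1534 several and 33206 none. The brightest probe set over the arrays was taken per gene, and genes below the 40th percentile of the mean were left out of the comparison set. Differences are log2 differences between single arrays. No test was run, since 1 array per group leaves no residual degrees of freedom, and array number limits the precision. The members and the gene lists were chosen with earlier results of these data known. Genes outside the list were named by a fixed rule: up to 4 with the largest difference per list and comparison, those against the list median by 1.5-fold, and the 3 most similar to each of the 5 members with the widest range, leaving out predicted and RIKEN genes. Mmp3, Timp1, Sphk1 and single cell type markers were named after their values were seen. Alternatives were the mean of probe sets, probe sets of several genes, other filters, quantile normalization, median centring, thresholds of 1.5-fold and 4-fold, and the other genotype's 0 h array. Counting was checked on simulated data. Python 3.11.15, pandas 2.3.3 and numpy 2.4.6 were used.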

Additional observations from a re-analysis of the deposited data

Results flagged for a closer look

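With 1 array per group, the following were marked because the 24 h minus 0 h difference had opposite signs in the genotypes, and the difference between the genotypes was not tested. Myc was at -0.63 in YAP-KO and 3.77 in wildtype, and Egr1 at -0.53 in YAP-KO and 2.66 in wildtype. Fosl2 was at -0.21 in YAP-KO and 1.57 in wildtype. Maff was at -0.01 in YAP-KO and 0.48 in wildtype, and at 0.00 in YAP-KO after quantile normalization. Among the lists, the median of the AP-1 genes outside the members was -0.04 in YAP-KO and 0.02 in wildtype, but -0.19 in YAP-KO and -0.24 in wildtype after centring and 0.00 in YAP-KO and -0.07 in wildtype with no filter, so the opposite signs depend on the processing. That of the MYC network was -0.10 in YAP-KO and 0.39 in wildtype. The YAP-KO values of Myc, Egr1, Fosl2 and Maff were 0.90, 0.42, 0.25 and 0.19 against the wildtype 0 h array.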

How the results depend on the processing

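No paired analysis was possible because each group holds 1 array, and for the same reason no array could be left out. Of the 10 alternatives, 6 leave every member's value as it is (those on probe sets, filters and thresholds). Under the other 4, 101 of 108 values of single members kept their direction and their side of 2-fold, or changed sign below 2-fold by under 0.5. The 7 others were Egr1 at 0 h (1.01), Fos (-0.98) and Atf3 (-0.94) in the difference of responses after quantile normalization, Atf3 there after centring (-0.95), and Jund (1.30), Myc (0.90) and Egr1 (0.42) in YAP-KO against the wildtype 0 h array. The counts of members moved by over 1.5 times only with the threshold, which by construction counts fewer or more. At 4-fold they were 0 higher at 24 h in YAP-KO, 5 in wildtype, 0 higher in YAP-KO at 0 h, 2 lower in YAP-KO at 24 h and 3 lower in the difference of responses. At 1.5-fold, 4 were higher in YAP-KO at 0 h, where 634 of the 18461 genes of the comparison set were. Shares of that set at 4-fold are not given, so the 4-fold counts show only the dependence on the threshold. Calls over the 6 related lists and 5 comparisons numbered 126, against 217 at 1.5-fold and 39 at 4-fold. Centring moved the median gene by -0.15 in the YAP-KO response, -0.26 in the wildtype response and 0.11 between the genotypes at 24 h. With it, calls over the comparison set were 578 higher and 586 lower at 24 h in YAP-KO (871 and 409 as deposited), and 1569 and 1677 in wildtype (2336 and 1087). Between the genotypes at 24 h they were 755 higher and 836 lower in YAP-KO (598 and 1058), and in the difference of responses 1334 and 1136 (1045 and 1385). Quantile normalization gave 1783 and 1305 in wildtype and 754 and 796 between the genotypes at 24 h. Members' counts under both scalings stayed at 8 in the wildtype response, 2 in the YAP-KO response and 6 between the genotypes at 24 h. Without detection calls, readings near the filter level, such as those of Fosl1, cannot be told from background.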
